A study of Mus musculus with 4 samples.

Results

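Promoter regions whose chromatin was open in every library of the study were examined in the posterior forelimb bud of the mouse. Overlap of 1 bp or more was enough to merge peaks of the 4 deposited ATAC-seq peak lists, which gave 44692 regions. Kept were those that held a peak from all 4 libraries and reached into the window of 2 kb before and 1 kb after an annotated transcription start site (TSS). There were 3093 such regions, here called common promoter regions, out of 17508 promoter regions and out of 3562 regions of any kind called in all 4 libraries. The members were chosen by the peak calls themselves, so being called in every library is a property of the choice and not a result.

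ATAC-seq uses the transposase Tn5 to cut accessible DNA and to add sequencing adapters to it. Each library came from the paired posterior forelimb buds of 1 embryo at E10.5, when the embryo has 35 somites, with 2 wild-type (WT) embryos and 2 Shh-/- embryos, all on a Swiss Webster background. The Shh-/- embryos carried a null allele of Sonic hedgehog (Shh) in every cell, so the posterior cells that would make the ligand and those that would respond to it were both without it. Each reaction used 5000 cells and 18 cycles of PCR. The lists of WT replicates 1 and 2 held 39080 and 11973 peaks, and those of Shh-/- replicates 1 and 2 held 5589 and 18459. The methods state 1 sequencing depth for the libraries in general, but the lists hold no read counts, so the depth reached in each library is unknown here, and a region without a peak was not called, which does not show that it was closed.

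A promoter is the stretch of DNA around the TSS where RNA polymerase II and its general factors assemble. At most active promoters of vertebrates this stretch is kept free of nucleosomes, which is what makes it accessible to Tn5. Many promoters, among them nearly all those of housekeeping genes, lie in CpG islands, where the dinucleotide CpG is not depleted because it stays unmethylated, and factors such as SP1, NRF1, NFY and the ETS family bind there.

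The promoters below each hold a match to a motif that is counted further on, and each came from the best placed common promoter region of a protein-coding gene with that match, leaving out genes already used for another motif. The gene of 2461 of the 3093 regions had an entry in the RefSeq promoter table. Shown are the 200 bases just before the RefSeq start site (GRCm38.p6, the assembly of mm10), written 5′ to 3′ on the strand of the gene, with the matches to the motif named for it in capitals. Sp1 (chr15:102406116-102406315, plus strand) encodes a zinc finger factor of GC boxes, and 2 copies of the NFY motif CCAAT are shown. Tomm40 (chr7:19715430-19715629, minus strand) encodes the channel of the import machinery of the outer mitochondrial membrane, and 3 copies of the SP/KLF motif GGGCGG are shown. C2cd3 (chr7:100372033-100372232, plus strand) encodes a centriole protein needed to build cilia, and the match is to the NRF1 motif CGCNTGCGC. Hdgfl2 (chr17:56079431-56079630, plus strand) holds a match to the ETS motif CCGGAAG. Tubb4b (chr2:25224703-25224902, minus strand), a β-tubulin gene, holds a match to the ZNF143 motif CTACANNTC. Kmt5c (chr7:4739927-4740126, plus strand), which encodes a methyltransferase of histone H4, holds a match to the E2F motif TTTNNCGC. Both strands were searched, so that a match can appear as its reverse complement.
Sp1: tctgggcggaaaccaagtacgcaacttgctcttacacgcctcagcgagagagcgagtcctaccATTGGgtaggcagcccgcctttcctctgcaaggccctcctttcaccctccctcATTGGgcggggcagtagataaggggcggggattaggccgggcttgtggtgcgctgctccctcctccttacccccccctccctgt
Tomm40: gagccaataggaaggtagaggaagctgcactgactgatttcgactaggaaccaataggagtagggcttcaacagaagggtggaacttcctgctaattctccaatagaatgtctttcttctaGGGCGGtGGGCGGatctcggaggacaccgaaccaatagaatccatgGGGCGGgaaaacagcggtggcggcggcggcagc
C2cd3: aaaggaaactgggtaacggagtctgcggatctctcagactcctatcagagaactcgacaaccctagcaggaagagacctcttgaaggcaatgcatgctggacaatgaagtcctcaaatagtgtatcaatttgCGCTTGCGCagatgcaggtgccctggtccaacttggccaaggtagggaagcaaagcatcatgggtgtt
Hdgfl2: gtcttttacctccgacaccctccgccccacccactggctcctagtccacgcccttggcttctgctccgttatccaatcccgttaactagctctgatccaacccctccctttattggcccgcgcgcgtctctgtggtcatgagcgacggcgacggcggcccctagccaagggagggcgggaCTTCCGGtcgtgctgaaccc
Tubb4b: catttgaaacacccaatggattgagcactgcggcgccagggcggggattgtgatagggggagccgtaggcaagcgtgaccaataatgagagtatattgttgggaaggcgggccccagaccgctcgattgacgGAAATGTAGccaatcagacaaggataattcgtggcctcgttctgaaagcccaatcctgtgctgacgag
Kmt5c: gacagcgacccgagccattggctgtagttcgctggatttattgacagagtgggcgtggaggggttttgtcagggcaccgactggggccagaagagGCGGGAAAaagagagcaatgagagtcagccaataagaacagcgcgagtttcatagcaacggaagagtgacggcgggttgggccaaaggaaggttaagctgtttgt
The number of CpG differed among these promoters. The 200 bases of Tomm40 held 10 CpG at 54.0% GC, those of Sp1 held 10 at 62.5% and those of Hdgfl2 held 17 at 63.5%.

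The common promoter regions were rich in GC, as promoter regions were in general, and in CpG. Their median width was 1169 bp, with quartiles of 929 and 1491 bp and a range of 336 to 15960 bp. This width spans the merged peaks, so classes that need peaks from more libraries are wider in part by construction. In single lists, the median width of the best peak in these regions was from 400 bp (Shh-/- replicate 1) to 1076 bp (WT replicate 1). In a window of 200 bp centred on the summit of the highest placed peak, median GC content was 63.0% (quartiles 57.5 and 67.5%). The median CpG ratio, the number of CpG over that which the C and G content would give by chance, was 0.820 (quartiles 0.670 and 0.959). Of the 3093 regions, 2484 (80.3%) had both GC above 50% and a CpG ratio above 0.6, and are called CpG-rich here, while 609 did not. The TSS itself lay inside 2977 regions (96.3%). By contrast, the 469 regions called in all 4 libraries that lay outside promoter windows had a median width of 979 bp, a GC content of 54.5% and a CpG ratio of 0.442, and 26.2% of them were CpG-rich. Over all 44692 regions, median GC was 55.5% and 28.1% were CpG-rich. Over all 17508 promoter regions, median GC was 62.5%, near that of the members. Their median CpG ratio was 0.733 and 61.9% were CpG-rich. These figures describe the regions in these 4 lists, and no test was made over regions.

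**Figure D1:**
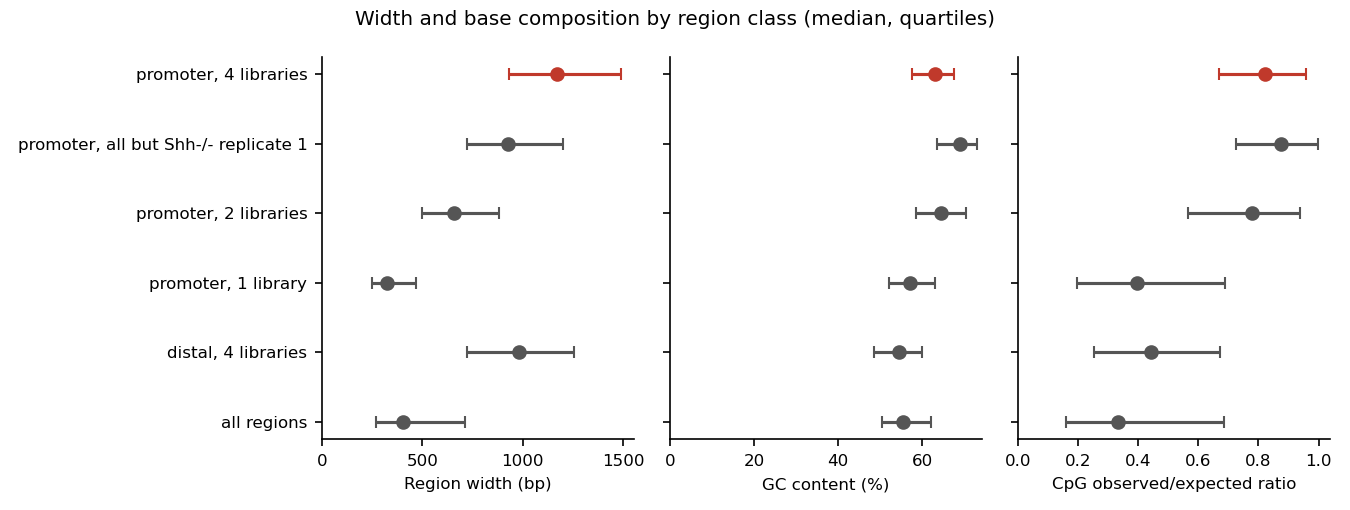
Width, GC content and CpG ratio of 6 classes of regions, with the median as a point and the quartiles as a bar. The common promoter regions (red) were the widest class at 1169 bp, in part by construction, since width spans the merged peaks of all libraries. The promoter regions called in all libraries but Shh-/- replicate 1 had more GC, at 69.0%.

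Which promoter regions were kept was set largely by 1 library. A further 4774 promoter regions were called in 3 of the 4 libraries. Of these, 4479 lacked a peak only in Shh-/- replicate 1, which had the shortest list, 284 only in WT replicate 2, 9 only in Shh-/- replicate 2 and 2 only in WT replicate 1. Without Shh-/- replicate 1 there would thus be 7572 members, of which 3093 (40.9%) also had a peak in it. The 4479 regions missing from that list, which were merged from fewer lists, were narrower, with a median of 924 bp. They held more GC, with a median of 69.0%, and 87.5% of them were CpG-rich. Among the 7572 regions, the share with a peak in Shh-/- replicate 1 fell along quartiles of GC content, from 62.8% at 29.0 to 61.0% GC, to 49.0%, 31.7% and 16.2% at 72.0 to 89.5% GC. Base composition, the length of this list and the genotype of its embryo cannot be told apart in it. Genes found only after seeing these values, as the best placed elsewhere, were Agpat5 (an acyltransferase of phospholipid synthesis), Skil (a corepressor of SMAD proteins), the miRNA gene Gm24270 and Tpt1 (the translationally controlled tumour protein). The region of Skil had percentiles of 2.88, 4.01 and 2.17 in the lists of WT replicate 1, WT replicate 2 and Shh-/- replicate 2 and no peak in Shh-/- replicate 1, and its GC content was 79.0%.

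To compare lists of such unequal length, peaks were ranked by the deposited score within each list and the rank of the best peak of a region was divided by the number of peaks, so that a percentile near 0 is the top of a list. The common promoter regions took up 8.14 and 27.3% of the peaks of WT replicates 1 and 2, and 56.9 and 17.3% of those of Shh-/- replicates 1 and 2. Their median percentile was 4.60 and 16.6 in the WT lists and 36.2 and 10.4 in the Shh-/- lists, rising as the lists became shorter. Of the top 1000 peaks of each list, 93.0, 88.8, 82.3 and 91.3% lay in common promoter regions, for the libraries in that order. The median percentile was 10.6 ± 8.51 in WT and 23.3 ± 18.3 in Shh-/- (SD, n = 2 libraries), a difference of -12.7. The genotypes overlapped, since Shh-/- replicate 2 (10.4) was placed higher than WT replicate 2 (16.6). A two-sided exact permutation test gave p = 0.667, where 0.333 is the smallest value that 2 against 2 libraries allow.

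The best peaks in the common promoter regions were wider than the peaks in other promoter regions of the same library. The members were chosen by being called in every list, and their best peaks were set against all peaks of the others. The contrast is therefore partly built in and is given as a description. The median width of the best peaks was 1076 bp in WT replicate 1 against 554 bp for peaks in other promoter regions. WT replicate 2 had 651 against 394 bp, Shh-/- replicate 1 had 400 against 276 bp and Shh-/- replicate 2 had 950 against 540 bp. The genotypes overlapped here as well, since the Shh-/- libraries gave the narrowest value and one above WT replicate 2. The means were 864 ± 301 bp in WT and 675 ± 389 bp in Shh-/- (SD, n = 2), a difference of 189 bp (exact permutation test, p = 0.667). Its direction turned without WT replicate 1 (-23.8 bp) and without Shh-/- replicate 1 (-73.0 bp), where the members were those of the other 3 libraries.

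**Figure D2:**
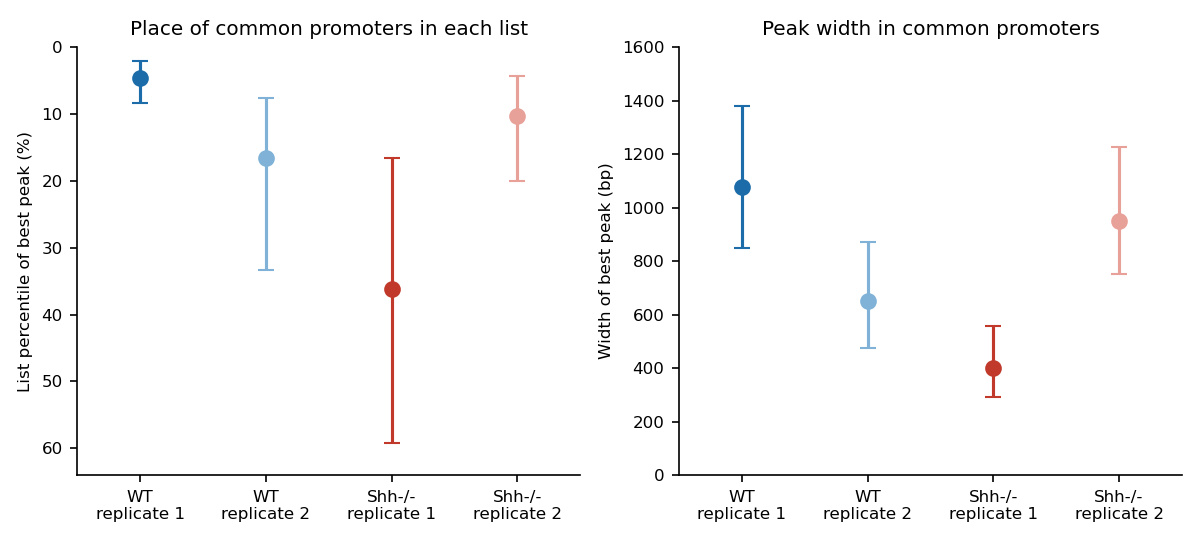
List percentile (left, 0 is the top of the list) and peak width in bp (right) of the best peak of each of the 3093 common promoter regions by library, as median (point) and quartiles (bar). The 2 libraries of each genotype lay far apart, with median percentiles of 4.60 and 16.6 in WT and 36.2 and 10.4 in Shh-/-.

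Accessibility was centred just upstream of the TSS. Distances were taken from the TSS of the gene that names the region, with protein-coding genes put first. The promoter window reaches further upstream (2 kb) than downstream (1 kb). The median summit lay at -68 and -62 bp from this TSS in WT replicates 1 and 2, and at -101 and -61 bp in Shh-/- replicates 1 and 2, where negative values are upstream. Between 76.9 and 83.4% of the summits were within 250 bp of this TSS. In each pair of libraries the summits of the same region were close to each other, with a median distance of 48 bp for WT replicate 1 and Shh-/- replicate 2, 53 bp within WT, 67 bp within Shh-/- and at most 68 bp (WT replicate 2 and Shh-/- replicate 1). All 4 summits lay within 100 bp in 1219 regions (39.4%) and were spread over more than 500 bp in 171. The order of the regions was similar between lists. Over the 3093 regions, which are the same DNA with the same base composition in every list, the Spearman correlation of the ranks was highest for WT replicate 1 and Shh-/- replicate 2 (0.863) and lowest for WT replicate 2 and Shh-/- replicate 1 (0.630). The pair of WT libraries had 0.840 and the pair of Shh-/- libraries 0.694.

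The regions belonged to the TSS of 3531 of 21938 protein-coding genes (16.1%), and this share is the background for every gene list below. A single protein-coding gene was found at 2348 regions, a pair at 578, 3 or more at 27 and none at 140. Promoter windows of protein-coding genes on both strands were overlapped by 568 regions (18.4%), and the start sites need not lie inside the region. The share was 8.44% for the promoter regions missing only from Shh-/- replicate 1. It was 6.38% for those called in 2 libraries and 3.11% for those called in 1. Median widths of these classes were 1169, 924, 660 and 323 bp, and a wider region can reach more windows. Among the other annotated classes, 47 of 190 bidirectional promoter lncRNAs (24.7%), which start back to back with a coding gene, had a common promoter region, as did 212 of 2959 antisense RNAs (7.17%) and 154 of 5854 lincRNAs (2.63%). All autosomes but 1 lay between 13.6% (chromosome 2) and 20.1% (chromosome 12), and chromosome 14 was at 11.3%. On chromosome X the share was 5.38% (51 of 948 genes), where 38.9% of the genes had a promoter peak in at least 1 library, against 62.1% of all protein-coding genes.

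Gene lists of known function were then compared with this background. Since the lists were chosen with results of these data known, their shares are given as a description, with no test. The highest share was that of the replication-dependent histones, which package newly made DNA during S phase, with 50 of 67 genes (74.6%). These 50 genes shared 31 regions, and many histone genes are known to start back to back. Hist1h2ac and Hist1h2bc, for example, had 1 region (chr13:23683246-23685043, 1798 bp) with percentiles of 0.250, 0.852, 2.62 and 1.02 in WT replicates 1 and 2 and Shh-/- replicates 1 and 2, respectively. Genes of DNA replication and the cell cycle followed with 29 of 56 (51.8%), including the replicative helicase subunits Mcm3, Mcm4, Mcm5, Mcm6 and Mcm7, the clamp Pcna, the cyclins Ccna2, Ccnd1 and Ccnd2 and the GINS subunit Gins2. The region of Gins2 (chr8:120588595-120589736) was near the top of every list, with percentiles of 0.390, 1.43, 2.09 and 0.610. The same was counted among the genes with a promoter region called in the other 3 libraries, of which Shh-/- replicate 1 held 50 of 54 for the histones (92.6%) and 29 of 46 for the replication and cell cycle genes (63.0%), against 43.5% of 8120 genes overall. Counted in this way, the genes of the Hedgehog pathway stood at 10 of 15 (66.7%), while the polymerase and chromatin lists described next were below the share of all genes, at 39.6 and 38.1%.

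Lists of translation, energy supply and other general functions lay lower, from 24.4 to 40%, a range that also held the limb and chromatin lists, while the Hedgehog pathway lay above it at 41.7%. The aminoacyl-tRNA synthetases, which charge tRNAs, had 8 of 20 genes (4 with a score of at least 50 or with lists of equal size) and the cytosolic ribosomal proteins 28 of 79 (35.4%). Splicing factors had 16 of 47 (34.0%), subunits of the respiratory chain 28 of 83 (33.7%) and translation initiation and elongation factors 22 of 68 (32.4%). Proteasome subunits had 9 of 31 (29.0%), RNA polymerase II with its general factors and Mediator 19 of 68 (27.9%), and mitochondrial ribosomal proteins 19 of 78 (24.4%). All of these were above 16.1%, but among the genes called in the other 3 libraries their shares ranged from 39.6 to 56%, around the 43.5% of all genes, with mitochondrial ribosomal proteins at 44.2% and proteasome subunits at 45%. Even so, most ribosomal protein genes were not members: WT replicates 1 and 2 had a promoter peak at 79 and 52 of them, and Shh-/- replicates 1 and 2 at 29 and 77. Atp5g1, a subunit of the ATP synthase (chr11:96075158-96076251), was the best placed of the respiratory chain list, with percentiles of 0.320, 1.43, 0.975 and 0.916 in WT replicates 1 and 2 and Shh-/- replicates 1 and 2. Among the ribosomal proteins, Rps19 (0.440, 2.85, 3.99 and 0.951 in the same order) and Rps29 (0.360, 0.994, 4.39 and 0.916) came first. In the polymerase list, Med19, a Mediator subunit, had percentiles of 0.583, 2.85, 1.74 and 2.08 at a GC content of only 43.5%. These genes were named for their high place in all 4 lists, which is therefore not a result.

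Chromatin regulators (histone deacetylases, Polycomb and Trithorax complexes) had 16 of 54 genes (29.6%), among them Ezh2, Suz12 and Eed of the Polycomb complex that methylates histone H3, the histone methyltransferases Kmt2a and Kmt2b, and the deacetylases Hdac4 and Hdac6. Hdac4 (chr1:92179381-92181163) was the best placed, with percentiles of 0.755, 2.44, 7.62 and 0.515. The zinc finger genes named Zfp and a number, a family chosen after the members were seen, had 63 of 365 (17.3%), close to the share of all protein-coding genes.

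**Figure D3:**
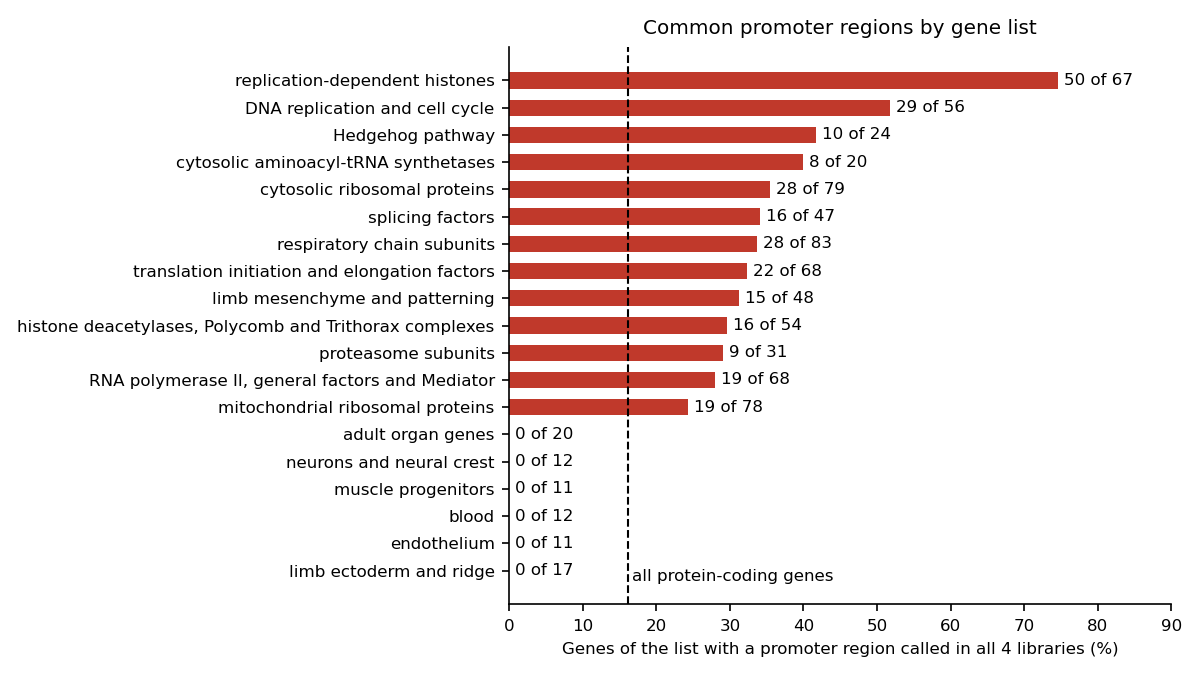
Share of the genes of each list with a common promoter region (bars, in percent), with the number of genes beside each bar and the share of all 21938 protein-coding genes, 16.1%, as a dashed line. Replication-dependent histones lay highest at 74.6%, and the lists of other cell types held 0.

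Genes of the limb bud itself were found too. Of 48 genes of limb mesenchyme and patterning, 15 (31.3%) had a common promoter region and all 48 had a promoter peak in at least 1 library. The members included the homeobox genes Prrx1, Pbx2, Lhx2, Irx3, Irx5 and Meis1, the T-box gene Tbx3, the growth factor Fgf10 with the receptor Fgfr2, the Notch ligand Jag1, and Etv5, Dusp6, Spry2 and Spry4, which are targets and feedback inhibitors of fibroblast growth factor signaling. Etv5 (chr16:22439332-22440424) had percentiles of 2.35, 2.66, 7.62 and 2.70 in WT replicates 1 and 2 and Shh-/- replicates 1 and 2. Tbx3 was placed lower, at 7.50, 12.3, 16.6 and 14.3. Some defining genes of the tissue were not members. In a dissected bud, fewer cells of a type, less open chromatin per cell and the length of a library's peak list cannot be told apart. The forelimb gene Tbx5, the posterior gene Hand2 and the distal Hox genes Hoxa13 and Hoxd13 had a promoter peak in WT replicate 1 alone, and Hoxd11 and Prrx2 in both WT libraries and no Shh-/- library. The share of all genes with either pattern was not counted, and WT replicate 1 had the longest list. Another 15 limb genes, such as Tbx2, Msx1, Grem1, Bmp4 and Hoxd10, lacked a peak only in Shh-/- replicate 1. With a score of at least 50 or with lists of equal size, 9 of the 48 genes were members.

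The lists for other cells that a dissected limb bud could hold had no member, but some of their genes had a promoter peak in some library. A promoter peak in at least 1 library was found for 10 of 17 genes of limb ectoderm and its ridge, 5 of 11 of endothelium, 6 of 12 of blood, 6 of 11 of muscle progenitors, 7 of 12 of neurons and neural crest and both hindlimb genes, Pitx1 and Tbx4. The share of all protein-coding genes was 62.1%, and all of these lists but that of the hindlimb lay below it. None of these genes had a promoter peak in Shh-/- replicate 1, which had one at 3821 of all 21938 protein-coding genes. Without that library there would be 1 member for endothelium (Flt1, a VEGF receptor), 1 for blood (Klf1, an erythroid factor), 2 for muscle progenitors and 3 for neurons and neural crest, and still 0 for ectoderm. Genes with a promoter peak in no library included Fgf8, Cdh1 and Trp63 of ectoderm, Pecam1 and Cdh5 of endothelium, Gata1 of blood and Myod1 and Pax7 of muscle. The part of such cells in the common promoter regions was not tested. Olfactory receptor genes, which serve in the nose, had 0 of 1092 (1 without Shh-/- replicate 1), and 8 of them had a promoter peak in at least 1 library.

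To determine how the Hedgehog (HH) pathway itself was represented, 24 of its genes were followed. In this pathway SHH binds its receptor PTCH1, which frees the membrane protein SMO, and the GLI factors then turn from repressors into activators. Common promoter regions were found for 10 genes (41.7%): the receptor Ptch1 and the coreceptor Gas1, the factors Gli1, Gli2 and Gli3, their inhibitor Sufu, the kinases Prkaca, Gsk3b and Csnk1a1 that prepare GLI proteins for processing, and Spop, which takes part in their degradation. Neither Shh nor Gpr161 had a promoter peak in any library, so the targeted gene gives no check of the genotypes here. The coreceptor Boc had peaks in both WT libraries and no Shh-/- library, a pattern whose share over all genes was not counted. Smo, Cdon, Evc, Evc2 and Scube2 lacked a peak only in Shh-/- replicate 1. Disp1, which releases the ligand, had a promoter peak in all 4 libraries but no single region that joined them.

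The members of the pathway were placed very differently. Gsk3b (chr16:38087811-38090077), a kinase of many pathways, was near the top of every list, with percentiles of 0.0793 and 0.530 in WT replicates 1 and 2 and 0.644 and 0.114 in Shh-/- replicates 1 and 2. Gli1 and Ptch1, which are both targets of the pathway, were placed much lower. The region of Gli1 (chr10:127338957-127342640, 3684 bp) had percentiles of 15.4 and 50.3 in the WT libraries and 85.4 and 87.2 in the Shh-/- libraries. It contained the TSS, but its best ranked summit lay 2728 bp downstream. That of Ptch1 (chr13:63563134-63566788, 3655 bp) had 19.9 and 68.4 in WT and 98.9 and 24.1 in Shh-/-, so that its genotypes overlapped. Gli3 had 8.01 and 38.1 in WT and 94.0 and 15.9 in Shh-/-, and its region held 78.5% GC.

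Because the lists differ in length, the order of regions was compared between genotypes by their ranks among the 3562 regions called in all 4 libraries. Of the 3093 common promoter regions, 623 (20.1%) ranked higher in both WT lists than in either Shh-/- list, against 18.8% of all 3562 regions. In the other direction, 527 (17.0%) ranked higher in both Shh-/- lists, against 19.3% of all 3562. Most of these 3562 regions are the common promoter regions themselves. For the 469 common regions outside promoter windows the counts were 47 (10.02%) and 159 (33.9%), so that the promoter regions had a larger share higher in WT and a smaller share higher in Shh-/- than these, with no test made over regions. Of the 11 regions of the HH pathway, 2 ranked higher in both WT lists and 2 in both Shh-/- lists. The former were those of Gli1 (ranks 3191 and 3024 in WT, 3318 and 3552 in Shh-/-) and Sufu (662 and 456 in WT, 924 and 993 in Shh-/-). Among the latter was that of Spop (3484 and 2680 in WT, 1908 and 2068 in Shh-/-). The ranks of Gli1 rest on scores of 188, 49, 34 and 31 in WT replicates 1 and 2 and Shh-/- replicates 1 and 2, against list medians of 45, 49, 69 and 78.

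The order also moved with GC content. Regions ranked higher in both WT lists had a median GC of 65% and those ranked higher in both Shh-/- lists 59.5%. From the lowest to the highest quartile of GC, the share ranked higher in both WT lists went from 11.8 to 18.5, 24.9 and 26.0%, and the share ranked higher in both Shh-/- lists from 27.3 to 19.6, 12.6 and 7.71%. The ranks of 1 library followed GC in a direction of its own: the median rank in Shh-/- replicate 1 went from 1308 in the lowest quartile to 2352 in the highest, while in the other lists it went from 1932 to 1460 (Shh-/- replicate 2), from 1833 to 1582 (WT replicate 1) and from 1891 to 1529 (WT replicate 2). Whether GC content accounts for the order between genotypes was not tested. With Shh-/- replicate 1 left out, 2498 of 7572 regions ranked higher in both WT lists than in Shh-/- replicate 2 and 2558 lower. The share over all regions called in those libraries was not counted, so these counts show nothing particular to promoter regions.

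**Figure D4:**
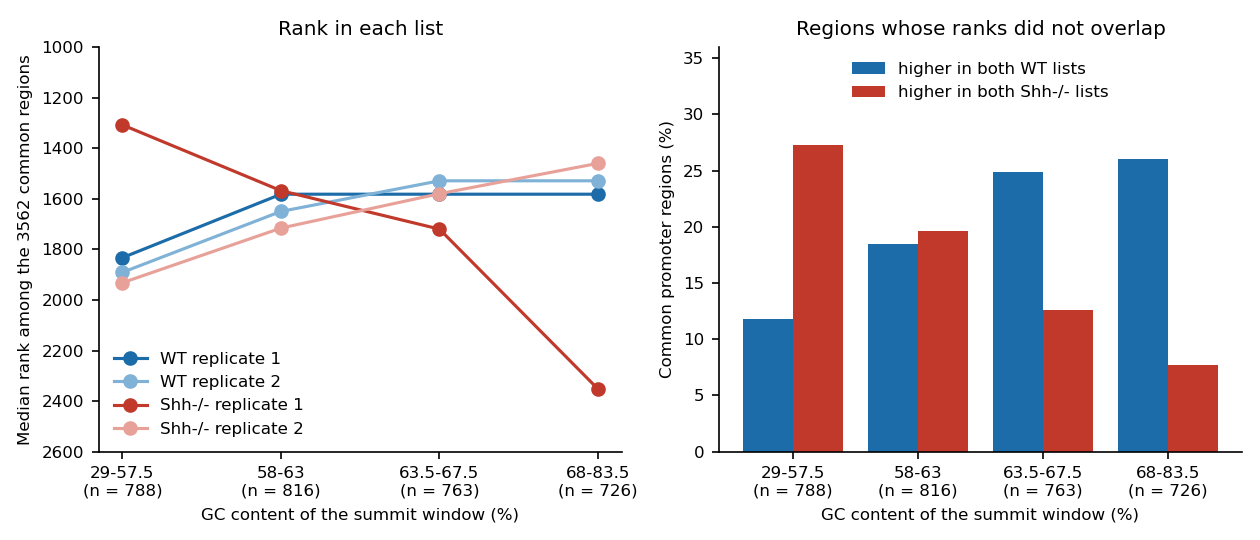
Common promoter regions by quartile of GC content around the summit. Left, the median rank among the 3562 regions called in all 4 libraries, with high ranks at the top, where Shh-/- replicate 1 fell from 1308 to 2352 while the other lines rose. Right, the share of regions ranked higher in both lists of a genotype, in percent.

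The regions with the largest gap in mean rank in favour of WT were those of Xab2 (a splicing and DNA repair factor), Ikbip, Cwc22 (a spliceosome component), Rell1, Caprin2 (an RNA-binding protein) and Insig1 (a brake on sterol synthesis). Xab2 ranked 893 and 554 in WT replicates 1 and 2 and 2838 and 2208 in Shh-/- replicates 1 and 2. Insig1 ranked 987 and 224 in WT and 3086 and 1460 in Shh-/-, and its region held 75.5% GC. For Cwc22, whose region was 26.6% masked repeat, the gap rested on Shh-/- replicate 2, with ranks of 24 and 20 in WT and 52 and 3452 in Shh-/-.

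The regions with the largest gap in favour of Shh-/- were those of Gm38197, Prrx1, Ndc1 (a nuclear pore protein), Gm48710, Gm39043 and Srsf1 (a splicing factor). Prrx1, a homeobox gene of limb mesenchyme, ranked 2488 and 3524 in WT replicates 1 and 2 and 543 and 1716 in Shh-/- replicates 1 and 2. Its region (chr1:163314471-163315430) did not contain the TSS, had its summit at -1146 bp and held 46.0% GC with a CpG ratio of 0.379, unlike most members. Srsf1 ranked 2284 and 2680 in WT and 852 and 694 in Shh-/-, with 60.5% GC. With 2 libraries a genotype, no test of a single region could be made.

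The regions picked for a high place in every list were in part repetitive. Named by their best placement in the list where they were lowest, the first regions were those of Gm10800 and Gm10801 on chromosome 2, Gm26917 on chromosome 17 and Gm28438 on chromosome 1, followed by Sp1. Gm10800 had rank 2 in WT replicate 1 and rank 1 in every other list, and 81.7% of its region was masked as repeat in the assembly, as was 57.4% of that of Gm10801. Gm26917 and Gm28438 were masked over only 4.37 and 10.3%. No list of problem regions was applied, and whether reads from further copies were placed at any of these 4 loci was not tested, so that their values are uncertain. In all, 12 of the 3093 regions (0.388%) were masked over at least 50% of their length, and 2434 over less than 10%. Sp1 (chr15:102405252-102406914), with 9.92% masked, had list ranks of 23.0, 28.5, 13.5 and 23.0 in WT replicates 1 and 2 and Shh-/- replicates 1 and 2. It was followed by the lincRNA 4932412D23Rik and by Brox, Tomm40, Srgap2 (a regulator of small GTPases), Khsrp (an RNA-binding protein), Ap2a1 (a clathrin adaptor) and the miRNA gene Gm23935. The region of Tomm40 had list ranks of 20, 31, 18.5 and 22.

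The widest regions were those of Sfi1 (15960 bp), Gm48265 (8986 bp), Tle3 (6661 bp), Cwc22 (6420 bp), Gm26917 (5853 bp) and Midn (5775 bp). That of Sfi1, a centrosome gene, was 45.9% masked repeat and had best peaks of 15910 and 15843 bp in WT replicates 1 and 2 and of 5880 and 12892 bp in Shh-/- replicates 1 and 2. Tle3, a Groucho corepressor, held 2 peaks in Shh-/- replicate 2, of which the best was 4793 bp wide, and 3 to 5 peaks in each of the other lists, with a best peak of 458 to 1787 bp. The narrowest regions were those of Rilpl2 (336 bp), Dhdds (378 bp) and Sfxn4 (396 bp). At the edge of the promoter window, the region of Maml3, a coactivator of Notch signaling, was kept with 8 bp inside the window, and that of Slc16a3, a lactate transporter, was left out by 9 bp. At the edge of the peak calls, Per1, a circadian clock gene, and Pdcd4, an inhibitor of translation, had the lowest score of the list of Shh-/- replicate 1, 19, and the percentiles of Pdcd4 in the other lists were 4.95, 8.39 and 10.4.

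Finally, sequence motifs of promoter factors were searched on both strands in the 200 bp around the best summit of each region. The SP/KLF motif GGGCGG was the most frequent, in 1861 common promoter regions (60.2%), followed by the NFY motif CCAAT in 1433 (46.3%). ETS matches (CCGGAAG) were found in 383 (12.4%), NRF1 matches (CGCNTGCGC) in 371 (12%), E2F matches (TTTNNCGC) in 233 (7.53%) and USF/MYC matches (CACGTG) in 215 (6.95%). ZNF143 matches (CTACANNTC) were found in 182 (5.88%) and CREB/ATF matches (TGACGTNA) in 153 (4.95%). The TATA box TATAAA was found in 86 (2.78%), ZBTB33 matches (CTCGCGAG) in 61 (1.97%) and YY1 matches (AAGATGGCG) in 58 (1.88%). Over all 44692 regions the shares in windows of the same length were 22.8% for SP/KLF, 23.4% for NFY, 4.77% for ETS, 3.11% for NRF1 and 4.61% for the TATA box. Over all promoter regions they were 45.3% for SP/KLF, 26.05% for NFY, 9.33% for ETS and 7.13% for NRF1. For the TATA box the share was 2.86%, near that of the members. None of the 11 motifs was found in 360 of the common promoter regions, and 532 held 3 or more of them.

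The NFY and ZNF143 shares differed most, as a ratio, between the common promoter regions and the promoter regions that lacked a peak only in Shh-/- replicate 1. NFY was found in 46.3% of the former and 24.7% of the latter, and ZNF143 in 5.88 and 2.26%. The SP/KLF, ETS and NRF1 shares were 63.5, 13.4 and 11.4% in the latter, near those of the members when GC content was left aside. Since the classes differ in GC content, the motifs were also counted within GC ranges, a choice made after the shares were seen. NFY was found in 45.9 against 25.6% of the regions below 50% GC (172 and 43 regions) and in 56.5 against 38.9% from 50 to 60%. It was found in 44.2 against 27.4% from 60 to 70% and in 34.4 against 18.4% above 70%. In the same ranges SP/KLF was also more frequent in the members, at 15.7 against 6.98, 44.15 against 31.4, 67.0 against 57.2 and 83.6 against 79.0%. NRF1 was as well, at 2.91 against 2.33, 7.45 against 5.4, 13.7 against 10.1 and 18.2 against 14.3%. ETS went both ways, being lower in the members from 50 to 70% GC and higher below and above. ZNF143 was at 4.65 against 9.30, 9.98 against 4.82, 5.09 against 2.53 and 1.31 against 1.19% in these ranges. Its difference thus did not go the same way throughout. In the RefSeq promoters (250 bases before to 50 after the start), NFY was found in 50.8% of 2861 genes with a common promoter region and in 38.6% of 16522 genes in the table, and the TATA box in 4.79 and 12.8%. A match is a string of letters and does not show that a factor was bound.

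The motifs were spread unevenly over the gene lists. NFY was found at 18 of 29 regions of the replication and cell cycle genes (62.1%), and E2F, the factor of the entry into S phase, at 8 of them (27.6%) against 7.53% of all members. The TATA box was found at 10 of 31 histone regions (32.3%) against 2.78% of all members. ETS matches were found at 10 of 29 regions of cytosolic ribosomal proteins (34.5%), NRF1 matches at 6 of 19 regions of mitochondrial ribosomal proteins (31.6%) and YY1 matches at 4 of 28 regions of the respiratory chain (14.3%). These are small counts, given with no test.

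**Figure D5:**
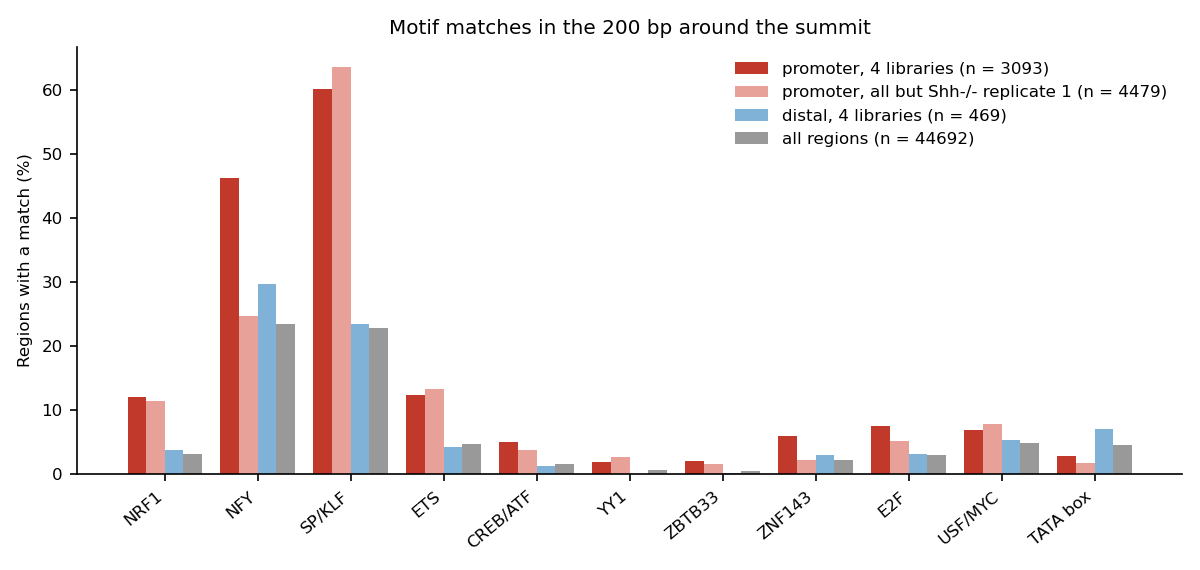
Share of regions, in percent, with a match to each of 11 motifs in the 200 bp around the summit, for 4 classes of regions. NFY was found in 46.3% of the common promoter regions (red) and in 24.7% of the promoter regions called in all libraries but Shh-/- replicate 1, while the SP/KLF shares were 60.2 and 63.5%. The classes differ in GC content, which is not held fixed here.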

How the data were processed

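ATAC-seq was run on 4 libraries, assigned to WT or Shh-/- and to a replicate by their titles. Per the study's methods and the submitters' processing notes, which name Bowtie2 2.2.5 and MACS2 2.1.0, peaks were called in every library on its own, with a q-value limit of 0.05 and a window fixed at 200 bp (mm10). Read filters and Tn5 offsets are not given in the sources used here. The deposited score of a peak served only to rank peaks within 1 list (mean rank for ties), and its scale is not stated in the files.

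Start sites came from the basic set of GENCODE M21 (GRCm38.p6), and a region was named by the nearest protein-coding TSS, or else the nearest other gene. Described by name were the regions placed best in every list, those with the largest rank gaps, the widest and narrowest, those at the edges of the rule, and the best of each gene list and motif. The members and lists were chosen with earlier results of these data known. Values per library were compared by exact permutation tests. The steps that merge peaks and find promoter regions were checked on simulated lists with known answers, in Python 3.11.15, numpy 2.4.6, pandas 2.3.3 and scipy 1.17.1. Alternatives were a score of at least 50, equal list size (5589 peaks), stricter overlap, other start sites, each library left out and, chosen after seeing the data, regions mostly repeat left out and a replicate block on the rank order.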

Additional observations from a re-analysis of the deposited data

How the results depend on the processing

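The deposited lists hold no read counts, so the depth reached in each library is unknown, and Shh-/- replicate 1 decided the membership. Leaving out each library in turn gave 3082 to 7572 common promoter regions and 3512 to 8120 protein-coding genes, with the highest values without Shh-/- replicate 1. The promoter share of the regions called in all libraries (86.8%) ranged from 73.8 to 88.1%, median GC from 62.5 to 66.5% and the median CpG ratio from 0.811 to 0.853. The counts ranked higher in every WT list ranged from 1086 to 2498 and in every Shh-/- list from 730 to 2558, since fewer lists have to agree. The shares over all common regions were not counted in these settings. The width difference between genotypes ranged from -73.0 to 464.5 bp, being negative without WT replicate 1 (-23.8 bp) and without Shh-/- replicate 1, and the percentile difference stayed negative, from -25.6 to -1.97.

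The promoter share was 91.9% with a score of at least 50, 93.4% at equal list size, 83.6% where the region had to contain a TSS and 82.9% with start sites of protein-coding transcripts alone. Over the whole region instead of 200 bp around the summit, median GC was 61.1% and the CpG ratio 0.758. Without Shh-/- replicate 1, ribosomal protein genes went from 28 to 51, chromatin regulators from 16 to 42, polymerase and Mediator genes from 19 to 48, replication and cell cycle genes from 29 to 46 and limb genes from 15 to 30, and other lists of general functions moved by more than 1.5 times as well, while histones (50 to 54) and the HH pathway (10 to 15) did not. The NFY share was 33.5% without that library, 43.9% without WT replicate 1 and 49.4% with a score of at least 50, against 46.3%. Of the other named values, only the gene counts given in the report for other cell types, olfactory receptors, synthetases and limb genes moved by more than 1.5 times. Regions mostly masked as repeat made no such difference (3081 regions without them). The rank deviations of same-numbered libraries from their genotype means were nearly uncorrelated (r = 0.0543 over 3093 regions). With 2 libraries a genotype, this single correlation cannot decide whether the numbers pair the samples. With a replicate block the differences were 189 bp and -12.7 (exact permutation test by sign flips, p = 1 for both), and 882 regions ranked higher in WT and 776 in Shh-/- within both numbers. Here too the shares over all common regions were not counted.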
